A study of Mus musculus with 27 samples.

Results

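Dural macrophages from Rag1 ko mice that had received T cells lacking interleukin-17A and F (IL-17A/F) were compared with those from mice that had received T cells lacking T-bet or interferon-gamma (IFN-gamma). The comparison used 6 of the 27 sequenced libraries, with 2 libraries in each of the 3 groups. They were taken by group label and by a low level of cytosolic ribosomal protein genes, under 10000 summed counts per 1000000 (CPM) in all 6. This level was read as a matched library type. All mice were of the B6 strain and the Rag1 ko genotype, which leaves a host without T or B cells of its own, and were 16 to 19 weeks old. The IL-17A/F, T-bet and IFN-gamma groups were studied 6.5 weeks after reconstitution with T cells lacking these genes, and the columns of all 6 libraries name female animals. The mutation was in the transferred T cells, and the sequenced macrophages carried Rag1 deficiency alone. The IL-17A/F libraries form one arm here, in which the T cells keep the genes of T-bet and IFN-gamma. The 4 libraries of the T-bet and IFN-gamma groups form the other, in which the T cells lack a gene of the type 1 axis and keep those of IL-17A and F.

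The dura mater is the outer layer of the meninges, and border macrophages are its most abundant immune cells. IFN-gamma is the signature cytokine of type 1 T cells, whose fate is set by the transcription factor T-bet. It binds a receptor of the Ifngr1 and Ifngr2 chains, acts through the kinases Jak1 and Jak2, and in macrophages turns on guanylate-binding proteins, MHC molecules, Fc-gamma receptors and the chemokines Cxcl9 and Cxcl10. IL-17A and F, made by type 17 T cells, bind the Il17ra and Il17rc chains and act through Traf3ip2 and Traf6 on NF-kB and C/EBP factors, chiefly in epithelial and stromal cells.

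The 6 libraries held from 6902602 to 13503664 counts, with 13225 to 16381 genes detected in each. The macrophage markers Csf1r (4940 to 5740 CPM), Adgre1 (1480 to 2610 CPM) and Cd68 (553 to 698 CPM) were high in all 6. The 2 libraries of a group differed by more than sampling noise, with a chi-square per degree of freedom of 18.3 for the IL-17A/F pair, 11.7 for the T-bet pair and 39.9 for the IFN-gamma pair. The column names do not show whether the T-bet libraries came from 1 animal or 2, nor whether some libraries were pools of animals. The first IFN-gamma library, F1, stood apart from the other 5. Mitochondrial genes took 5.05% of its counts, against 1.00% and 1.26% in the IL-17A/F libraries, 1.41% and 1.32% in the T-bet libraries and 1.44% in the second IFN-gamma library. It alone had Arg1 (71.0 CPM, with 0 counts in the other 5) and was highest in Saa3 (156 CPM, with 0 to 14.9 CPM in the other 5) and in the endothelial gene Pecam1 (56.7 CPM, with 5.58 to 11.9 CPM in the other 5). The call of Fcgr4 and the medians of the main lists are therefore also given without it.

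Fcgr4, the activating low-affinity receptor for IgG2 antibodies on mouse monocytes and macrophages, was the single gene called in the main comparison. It was higher in the IL-17A/F group. Of 12665 genes tested with edgeR's quasi-likelihood test on counts, 1 (0.0079%) was called higher and none lower at a Benjamini-Hochberg adjusted p (q) under 0.05. At an unadjusted p under 0.05 there were 489 genes, 366 higher (2.89%) and 123 lower (0.971%) in the IL-17A/F group. Together these are fewer than the share of 0.05 that such a threshold passes on average when no gene differs. The split into higher and lower genes differed between fits. DESeq2 put 340 genes on the higher side and 188 on the lower side at that p. A fit to the 6 libraries alone put 472 genes on the higher side and 411 on the lower side at that p, and called 5 genes. Against the T-bet group alone no gene was called (0%), with 180 genes at an unadjusted p under 0.05, 119 higher and 61 lower; DESeq2 called none either. Against the IFN-gamma group alone, 2 genes were called higher (0.0158%), Fcgr4 and Nmrk1, and 534 genes above and 243 below that group had an unadjusted p under 0.05. Both comparisons use the same IL-17A/F libraries, so their values are set side by side below and are not independent of each other. Irrespective of any test, both IL-17A/F libraries lay above all 4 others for 1202 genes (9.49%) and below all 4 for 986 genes (7.79%). With 2 libraries against 4, an exact permutation test of a single gene cannot go below p = 0.0667.

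The promoter windows of Fcgr4 and of the next 2 genes of the IFN-gamma response list by p with a RefSeq window are printed here because the one called gene belongs to that list. Only Fcgr4 was called, and the other 2 were chosen after their values were seen. Each window runs from 250 bases before to 50 bases after the gene's start on GRCm38.p6 and is written 5′ to 3′ on the gene's strand. Capitals mark matches to the interferon-stimulated response element GAAANNGAA or to the NF-kB motif GGGANTTCC, searched on both strands along with the gamma-activated site TTCNNNGAA, for which none of the 3 windows had a match.
Fcgr4, chr1:171018676-171018975, + strand: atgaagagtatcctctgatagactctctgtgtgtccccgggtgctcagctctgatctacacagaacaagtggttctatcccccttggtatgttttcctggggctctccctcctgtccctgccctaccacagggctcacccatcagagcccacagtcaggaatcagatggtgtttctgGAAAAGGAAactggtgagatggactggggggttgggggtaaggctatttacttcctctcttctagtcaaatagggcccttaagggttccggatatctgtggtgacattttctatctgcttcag
Cxcl9, chr5:92328030-92328329, - strand: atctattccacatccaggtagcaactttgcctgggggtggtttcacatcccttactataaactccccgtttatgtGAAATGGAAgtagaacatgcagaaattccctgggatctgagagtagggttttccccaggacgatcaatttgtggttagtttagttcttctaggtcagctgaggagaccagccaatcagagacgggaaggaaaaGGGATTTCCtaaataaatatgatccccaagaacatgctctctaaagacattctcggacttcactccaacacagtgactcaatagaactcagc
Gbp3, chr3:142559794-142560093, + strand: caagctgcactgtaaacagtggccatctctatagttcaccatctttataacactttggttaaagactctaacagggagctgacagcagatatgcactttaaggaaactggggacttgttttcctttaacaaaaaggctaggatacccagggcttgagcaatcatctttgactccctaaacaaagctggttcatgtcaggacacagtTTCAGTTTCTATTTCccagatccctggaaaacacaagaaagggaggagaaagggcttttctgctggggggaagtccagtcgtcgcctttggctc
In Fcgr4 the match begins 73 bases before the start. In Cxcl9 the response-element match begins 175 bases before the start and the NF-kB match 42 bases before it. Gbp3 has 2 listed windows, and the one shown holds 2 overlapping response-element matches on the opposite strand, 44 and 38 bases before the start.

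Of the 32 tested genes of the IFN-gamma response list, 22 had a RefSeq window. The response-element letters occurred in 14 of these 22 (63.6%), against 9.76% of all 27025 genes with a window, and the gamma-activated site in 9 of 22 (40.9%), against 9.55%. In the MHC class I list they occurred in 5 (26.3%) and 2 (10.5%) of 19 genes, and in the MHC class II list in 1 of 9 genes each (11.1%). Among the border macrophage genes the shares were 4 of 14 (28.6%) and 1 of 14 (7.14%). These are matches of letters, not measured binding.

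Fcgr4 lies on chromosome 1 (GRCm38, 171018920 to 171029761, + strand). It had 252.5 and 397 CPM in the IL-17A/F libraries, 140 and 157 CPM in the T-bet libraries, and 78.2 and 89.7 CPM in the IFN-gamma libraries. The 3 groups did not overlap, with the IL-17A/F group highest and the IFN-gamma group lowest. The log2 fold change of the IL-17A/F group over the mean of the other groups was 1.54 ± 0.246 (SE; edgeR quasi-likelihood test, q = 0.0232). It was 1.95 over the IFN-gamma group (q = 0.017) and 1.13 over the T-bet group, which was not called (edgeR q = 1). The call rested on single libraries. Without the second IL-17A/F library the log2 fold change was 1.18 (edgeR q = 1), and leaving out either T-bet library or the first IFN-gamma library also ended the call (edgeR q = 0.143 to 0.299) with values from 1.49 to 1.58. Summing both T-bet libraries into 1 gave a log2 fold change of 1.54 with an edgeR q of 0.2. A fit to the 6 libraries alone as 2 arms did not call Fcgr4 either (1.47, edgeR q = 0.331).

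The other Fc receptors of the list were not called. Fcgr1, the high-affinity IgG receptor, had 433 and 486 CPM in the IL-17A/F libraries, 433 and 404 CPM in the T-bet libraries, and 330 and 371 CPM in the IFN-gamma libraries. The log2 fold changes of Fcgr1, of the common signalling chain Fcer1g, of the inhibitory receptor Fcgr2b and of Fcgr3 were 0.26 ± 0.131, 0.27 ± 0.161, 0.29 ± 0.173 and 0.19 ± 0.136 (SE), all at an edgeR q of 1. The neonatal receptor Fcgrt, which recycles IgG, had 906 and 829 CPM in the IL-17A/F libraries, 906 and 913 CPM in the T-bet libraries, and 995 and 807 CPM in the IFN-gamma libraries. Of the 6 Fc receptor genes, 5 thus had both IL-17A/F libraries above all 4 others, beside 9.49% of all genes. The margins were large for Fcgr4 alone.

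**Figure D1:**
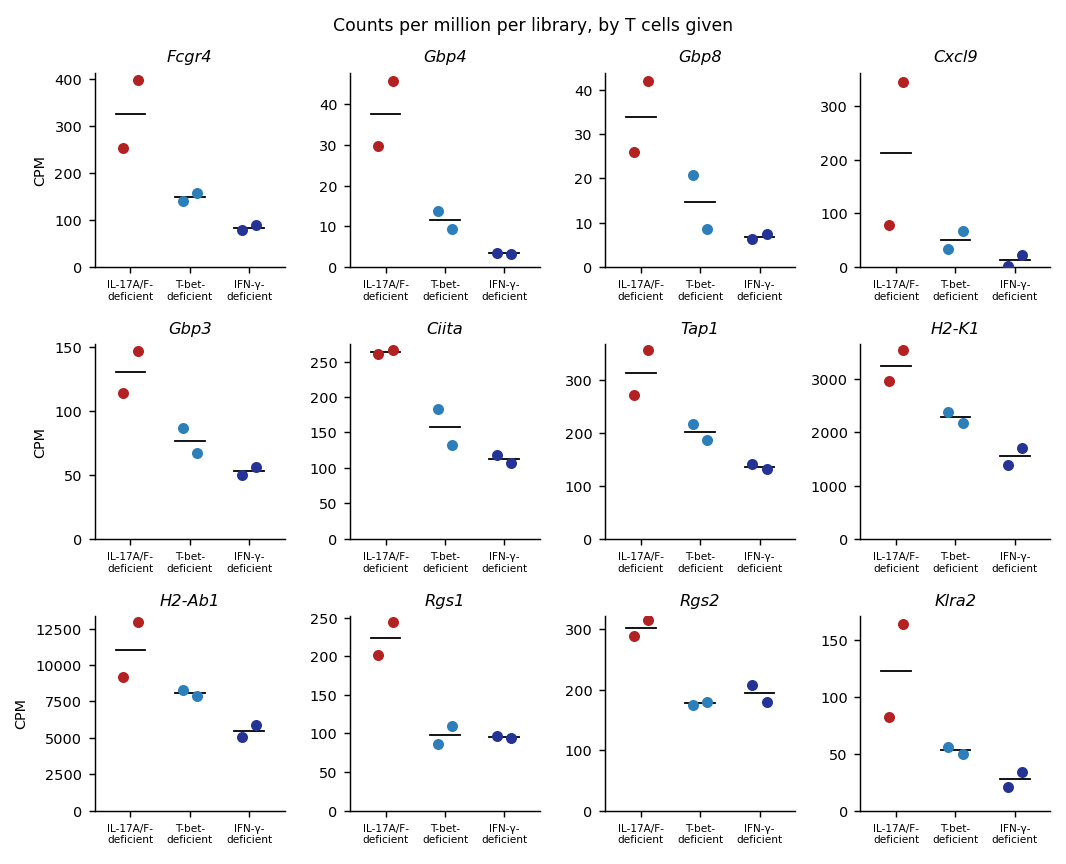
Levels in CPM (y axis, linear from 0) of 12 genes in the 6 libraries, with the IL-17A/F, T-bet and IFN-gamma groups from left to right; points are libraries and lines are group means (n = 2 each). Both IL-17A/F libraries lie above all 4 others in every panel, and only Fcgr4 was called.

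Most genes of the IFN-gamma response list were at their highest in the IL-17A/F libraries. Of 38 listed genes, 35 were found in the table by symbol and 32 were tested. Fcgr4 was called, and 14 of the 32, Fcgr4 included, were higher at an unadjusted p under 0.05 while none was lower, beside 2.89% and 0.971% of all genes. Their median log2 fold change was 0.83, beside 0.01 for all 12665 genes, with 0.57 over the T-bet group and 1.03 over the IFN-gamma group. Both IL-17A/F libraries lay above all 4 others for 23 of the 32 (beside 9.49% of all genes) and below them for 1, Batf2. For 17 of the 32 the 3 groups followed one order without overlap, IL-17A/F above T-bet above IFN-gamma, which 3.1% of all genes did. The second IL-17A/F library was the higher of its pair for 21 of the 32. The list's median was 0.53 without that library, with 5 genes higher at an unadjusted p under 0.05, and 0.88 with 12 such genes without the first IFN-gamma library.

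The guanylate-binding proteins are interferon-induced GTPases that attack intracellular microbes. Gbp4 had 29.7 and 45.7 CPM in the IL-17A/F libraries, 13.8 and 9.47 CPM in the T-bet libraries, and 3.57 and 3.19 CPM in the IFN-gamma libraries. Its log2 fold change was 2.58 ± 0.56 (SE), short of the threshold (edgeR q = 0.282), and it was called by DESeq2 and in 3 other alternative fits. Gbp8 had 25.9 and 42.0 CPM in the IL-17A/F libraries, 20.8 and 8.58 CPM in the T-bet libraries, and 6.32 and 7.45 CPM in the IFN-gamma libraries. These 2 genes overlap on the minus strand of chromosome 5 (Gbp4 at 105115767 to 105139586 and Gbp8 at 105014150 to 105139540, GRCm38), and the family holds near-identical copies, so the split of reads between them is uncertain. Gbp3 and Gbp2 differed by 1.03 ± 0.319 and 1.18 ± 0.499 on the log2 scale (SE). All 7 tested Gbp genes had both IL-17A/F libraries above the other 4, beside 9.49% of all genes.

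Among immunity-related GTPases, which act on pathogen vacuoles, Igtp had 108 and 128 CPM in the IL-17A/F libraries, 93.8 and 66.3 CPM in the T-bet libraries, and 42.0 and 56.5 CPM in the IFN-gamma libraries. Its log2 fold change was 0.91 ± 0.322 and that of Iigp1 0.65 ± 0.301 (SE; not called). Serpina3g, a protease inhibitor from a family of near copies, reached 1.51 ± 0.502. The arms overlapped for Ifi47 and Tgtp2.

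Cxcl9, which attracts Cxcr3-bearing T cells, varied widely between libraries. It had 79.2 and 344 CPM in the IL-17A/F libraries, 34.1 and 66.4 CPM in the T-bet libraries, and 2.47 and 22.4 CPM in the IFN-gamma libraries. The groups did not overlap, and the log2 fold change was 3.06 ± 0.869 (SE; edgeR q = 0.856), or 1.64 at the lowest over the alternatives. Ccl5, which attracts T cells and monocytes, showed the same order, with 14 and 47 CPM in the IL-17A/F libraries, 6.49 and 6.31 CPM in the T-bet libraries, and 0.824 and 5.76 CPM in the IFN-gamma libraries. Cxcl10, a ligand of the same receptor as Cxcl9, differed far less, at 0.50 ± 0.429 on the log2 scale. Irf1, an interferon-induced transcription factor, had 533 and 466 CPM in the IL-17A/F libraries, 804 and 517 CPM in the T-bet libraries, and 622 and 556 CPM in the IFN-gamma libraries, so it did not follow the other genes of the list.

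MHC class II genes, which present peptides to CD4 T cells, leaned the same way throughout. All 12 tested genes had a positive log2 fold change, with a median of 0.69 (0.46 over the T-bet group and 0.91 over the IFN-gamma group). None was called, while 8 were higher at an unadjusted p under 0.05, beside 2.89% of all genes. H2-Ab1 had 9150 and 12970 CPM in the IL-17A/F libraries, 8264 and 7888 CPM in the T-bet libraries, and 5028 and 5893 CPM in the IFN-gamma libraries. Its 2 IL-17A/F values lay above both T-bet values, which in turn lay above both IFN-gamma values. That order without overlap held for 8 of the 12 genes, beside 3.1% of all genes. Ciita, the master activator of these genes, had 260 and 266 CPM in the IL-17A/F libraries, 183 and 133 CPM in the T-bet libraries, and 118 and 107 CPM in the IFN-gamma libraries (log2 fold change 0.98 ± 0.347, SE). The invariant chain Cd74 differed by 0.56 ± 0.258, the peptide editor subunit H2-DMb1 by 0.70 ± 0.241 and the protease Ctss, which trims the invariant chain, by 0.67 ± 0.172 on the log2 scale. The second IL-17A/F library was the higher of its pair for 11 of the 12. Without it the list's median was 0.44 and 1 gene was left at an unadjusted p under 0.05. Without the first IFN-gamma library the median was 0.69, with 6 such genes.

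The MHC class I and antigen processing genes leaned the same way. All 23 tested genes had a positive log2 fold change, with a median of 0.58 (0.33 over the T-bet group and 0.83 over the IFN-gamma group). Of these, 15 were higher at an unadjusted p under 0.05, beside 2.89% of all genes, with none called. H2-K1, a classical class I heavy chain on chromosome 17 (GRCm38, 33996017 to 34000347, - strand), had 2954 and 3540 CPM in the IL-17A/F libraries, 2381 and 2181 CPM in the T-bet libraries, and 1393 and 1710 CPM in the IFN-gamma libraries. The 3 groups did not overlap for it or for 16 other genes of the list, all in the same order, which 3.1% of all genes followed. Its log2 fold change was 0.79 ± 0.197 (SE; edgeR q = 0.546). H2-D1, H2-Q4, H2-Q6 and the nonclassical H2-T23 differed by 0.54 ± 0.152, 0.81 ± 0.2, 1.16 ± 0.344 and 0.74 ± 0.188, and the class I genes are close enough in sequence that reads may have been shared among them. Tap1, a subunit of the transporter that carries peptides into the endoplasmic reticulum, had 272 and 356 CPM in the IL-17A/F libraries, 216 and 187 CPM in the T-bet libraries, and 141 and 131 CPM in the IFN-gamma libraries. It overlaps the immunoproteasome subunit gene Psmb9 on the other strand (Tap1 at 34187553 to 34197225, Psmb9 at 34181987 to 34187764 on chromosome 17), and the unstranded libraries cannot tell reads of that overlap apart. The light chain B2m differed by 0.44 ± 0.172 and the class I activator Nlrc5 by 0.69 ± 0.302 on the log2 scale. Without the second IL-17A/F library the list's median was 0.41 and 6 genes were left at an unadjusted p under 0.05. Without the first IFN-gamma library these were 0.53 and 12.

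**Figure D2:**
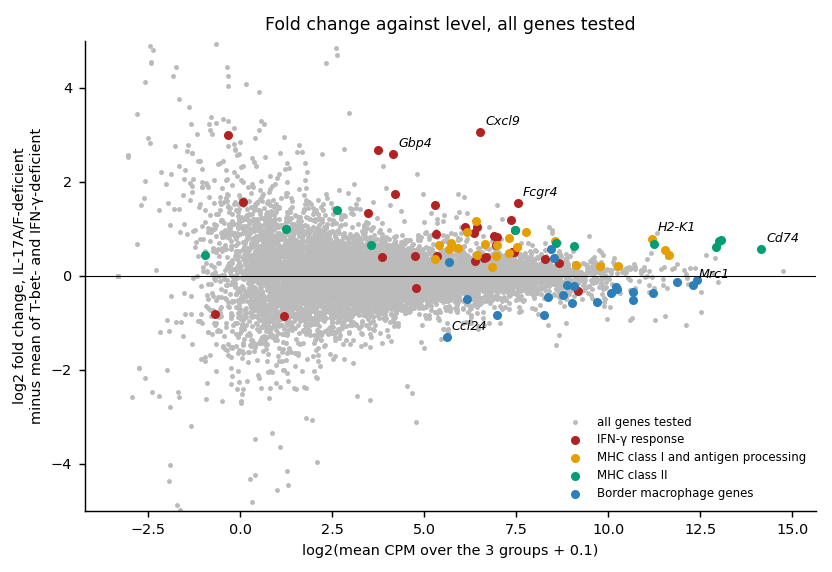
Log2 fold change of the IL-17A/F group over the mean of the T-bet and IFN-gamma groups (y axis) against the log2 of the mean CPM of the 3 groups plus 0.1 (x axis) for the 12665 genes tested, of which 17 lie beyond the axis limits of 5; coloured points are the tested members of 4 lists. The IFN-gamma response and both MHC lists lie mostly above 0 and the border macrophage genes mostly below.

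Type I interferon genes, many of which also answer to IFN-gamma, leaned less. Their median log2 fold change was 0.22 over 24 tested genes, of which 21 were positive. Of these genes 1, Mx2, was higher at an unadjusted p under 0.05, beside 2.89% of all genes. Both IL-17A/F libraries lay above all 4 others for 8 of the 24, beside 9.49% of all genes. For 6 of the 24 the order was IL-17A/F above T-bet above IFN-gamma without overlap, which 3.1% of all genes followed. The median was -0.003 without the first IL-17A/F library and 0.41 without the second, and 8 genes were higher at that p in the fit to the 6 libraries alone with 3 groups. Mx2 had 6.55 and 6.88 CPM in the IL-17A/F libraries, 4.82 and 2.86 CPM in the T-bet libraries, and 0.824 and 2.48 CPM in the IFN-gamma libraries. Ifit1, an RNA sensor, had 45.1 and 29.2 CPM in the IL-17A/F libraries, 31.7 and 34.8 CPM in the T-bet libraries, and 37.3 and 30.9 CPM in the IFN-gamma libraries, and the arms overlapped.

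The genes of the cytokines at issue were not detected in the sorted cells. Ifng, Tbx21 (which encodes T-bet), Il17a, Il17f, Il21 and Il22 had 0 counts in all 6 libraries, which allows up to 0.222 to 0.435 CPM (3 counts of a library's total, counting error only). A macrophage library cannot check a deletion made in the donor T cells. Transcripts of the T-cell receptor complex were at or near 0. Cd3e had 0 and 5 counts in the IL-17A/F libraries and 0 in the other 4, and Cd3g had 1 and 6 counts in the IL-17A/F libraries and 0 in the other 4. Cd28, a costimulatory receptor of T cells, lay the other way, with 27 and 10 counts in the IL-17A/F libraries, 17 and 61 counts in the T-bet libraries, and 57 and 75 counts in the IFN-gamma libraries. It was the one of 4 tested T-cell genes at an unadjusted p under 0.05 (log2 fold change -1.68, edgeR q = 1), and the median of the 4 was -0.38. Of 18 T-cell genes, 5 to 8 were at 0 in an IL-17A/F library, against 9 to 11 in a T-bet library and 13 to 15 in an IFN-gamma library. The list's summed level was 220.6 to 225.7 CPM in the IL-17A/F libraries, 176.5 to 215 CPM in the T-bet libraries and 171 to 180.9 CPM in the IFN-gamma libraries, nearly all of it from Cd4, which macrophages can express (221 and 211 CPM in the IL-17A/F libraries, 171 and 205 CPM in the T-bet libraries, 161 and 172 CPM in the IFN-gamma libraries). The part of these T-cell transcripts in the interferon results was not tested.

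The receptor genes of IFN-gamma were measured in all libraries. Ifngr1 had 353 and 365 CPM in the IL-17A/F libraries, 304 and 318 CPM in the T-bet libraries, and 274 and 316 CPM in the IFN-gamma libraries. Ifngr2 had 173 and 174 CPM in the IL-17A/F libraries, 135 and 144 CPM in the T-bet libraries, and 140 and 153 CPM in the IFN-gamma libraries. Both lay above the other arm without overlap, by log2 fold changes of 0.24 ± 0.134 and 0.28 ± 0.18 (SE; not called). Ptpn6, a phosphatase that restrains the pathway, differed by 0.48 ± 0.18. Socs3, a feedback inhibitor of Jak kinases, went the other way at -0.34 ± 0.177, and Jak1 had 401 and 365 CPM in the IL-17A/F libraries, 398 and 373 CPM in the T-bet libraries, and 385 and 355 CPM in the IFN-gamma libraries. Of the 12 genes of the pathway, 2 were higher at an unadjusted p under 0.05, beside 2.89% of all genes. The median log2 fold change of the 12 was 0.19. Ifnar1, a chain of the type I interferon receptor, differed by 0.36 ± 0.152.

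On the IL-17 side, the receptor chain Il17ra had 108 and 124 CPM in the IL-17A/F libraries, 128 and 179 CPM in the T-bet libraries, and 178 and 176 CPM in the IFN-gamma libraries. It was below the other arm in both IL-17A/F libraries, with a log2 fold change of -0.51 ± 0.225 (SE; not called), and was the one member of the 10 tested IL-17 receptor and signalling genes at an unadjusted p under 0.05. The second chain, Il17rc, had 5.18 and 13.1 CPM in the IL-17A/F libraries, 8.36 and 7.79 CPM in the T-bet libraries, and 2.61 and 6.29 CPM in the IFN-gamma libraries. The adaptor Traf6 had 24.1 and 23.9 CPM in the IL-17A/F libraries, 23.5 and 30.6 CPM in the T-bet libraries, and 40.4 and 27 CPM in the IFN-gamma libraries, and the arms overlapped.

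The 24 tested IL-17 and NF-kB target genes had a median log2 fold change of -0.34. None was called, and 2 were lower at an unadjusted p under 0.05, beside 0.971% of all genes. The median was -0.54 without the first IL-17A/F library, -0.18 without the second, -0.16 without the second T-bet library and -0.25 without the first IFN-gamma library. Mmp9, a gelatinase, had 205 and 210 CPM in the IL-17A/F libraries, 468 and 474 CPM in the T-bet libraries, and 541 and 520 CPM in the IFN-gamma libraries. Its libraries lay close together within each group, and its log2 fold change was -1.27 ± 0.523 (SE; edgeR q = 1). In a fit to the 6 libraries alone, where the spread of the other groups does not enter, it was called. Cebpd, a C/EBP factor, had 158 and 187 CPM in the IL-17A/F libraries, 349 and 278 CPM in the T-bet libraries, and 267 and 230 CPM in the IFN-gamma libraries. Steap4, a metalloreductase, differed by -1.14 ± 0.707, with 51.0 and 46.3 CPM in the IL-17A/F libraries, 99.8 and 110 CPM in the T-bet libraries, and 124 and 96.0 CPM in the IFN-gamma libraries. Both IL-17A/F libraries lay below all 4 others for these 3 of the 24 genes, beside 7.79% of all genes. For the other 21 the arms overlapped, among them Nfkbiz (2322 and 1673 CPM in the IL-17A/F libraries, 2320 and 1735 CPM in the T-bet libraries, 1688 and 1729 CPM in the IFN-gamma libraries) and Tnf (248 and 197 CPM in the IL-17A/F libraries, 359 and 318 CPM in the T-bet libraries, 258 and 231 CPM in the IFN-gamma libraries).

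The border macrophage genes, which mark resident macrophages of the meninges, had a median log2 fold change of -0.35 over 22 genes. None was called, and at an unadjusted p under 0.05 there was 1 higher gene and no lower one (9 lower in the fit to the 6 libraries alone with 3 groups). Both IL-17A/F libraries lay below all 4 others for 8 genes and above them for 2, beside 7.79% and 9.49% of all genes. Ms4a7, a membrane protein gene of macrophages, was one of the genes above, with 398 and 466 CPM in the IL-17A/F libraries, 362 and 369 CPM in the T-bet libraries, and 215 and 385 CPM in the IFN-gamma libraries. Folr2, a folate receptor, had 237 and 165 CPM in the IL-17A/F libraries, 352 and 330 CPM in the T-bet libraries, and 366 and 394 CPM in the IFN-gamma libraries. Igf1, a growth factor, had 392 and 382 CPM in the IL-17A/F libraries, 594 and 523 CPM in the T-bet libraries, and 650 and 542 CPM in the IFN-gamma libraries. The eosinophil attractant Ccl24 differed by -1.30 ± 0.715, the reductase Cbr2 by -0.56 ± 0.395 and the mannose receptor Mrc1 by -0.20 ± 0.377 on the log2 scale (SE). The list's median was -0.14 without the second IL-17A/F library, -0.51 without the first, and -0.33 without the first IFN-gamma library. In RNA of a bulk sort, fewer cells of a type and less RNA per cell cannot be told apart.

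Alternative activation genes, which answer to interleukin-4 and 13, had a median of -0.46 over 21 tested genes, and shared Mrc1, Folr2, Ccl24 and others with the border list. Without the first IFN-gamma library, which alone had Arg1, the median was -0.19 and no gene was lower at an unadjusted p under 0.05, against 2 with it. Cd209a, a lectin, had 30.6 and 23.1 CPM in the IL-17A/F libraries, 36.6 and 77.7 CPM in the T-bet libraries, and 78.4 and 56.2 CPM in the IFN-gamma libraries, and was lower at an unadjusted p under 0.05, as was Retnla. Klf4, a factor that takes part in this programme, lay above the other arm, with 404 and 619 CPM in the IL-17A/F libraries, 231 and 263 CPM in the T-bet libraries, and 259 and 246 CPM in the IFN-gamma libraries (log2 fold change 1.03 ± 0.327, SE; not called). Klf4 is also among the early-response genes that tissue digestion induces. Of these 22 genes, 4 were higher and 1 was lower at an unadjusted p under 0.05, beside 2.89% and 0.971% of all genes. Fosb was one of the 4, with 3228 and 4187 CPM in the IL-17A/F libraries, 2082 and 2102 CPM in the T-bet libraries, and 1843 and 1871 CPM in the IFN-gamma libraries. The part of digestion in these differences was not tested.

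**Figure D3:**
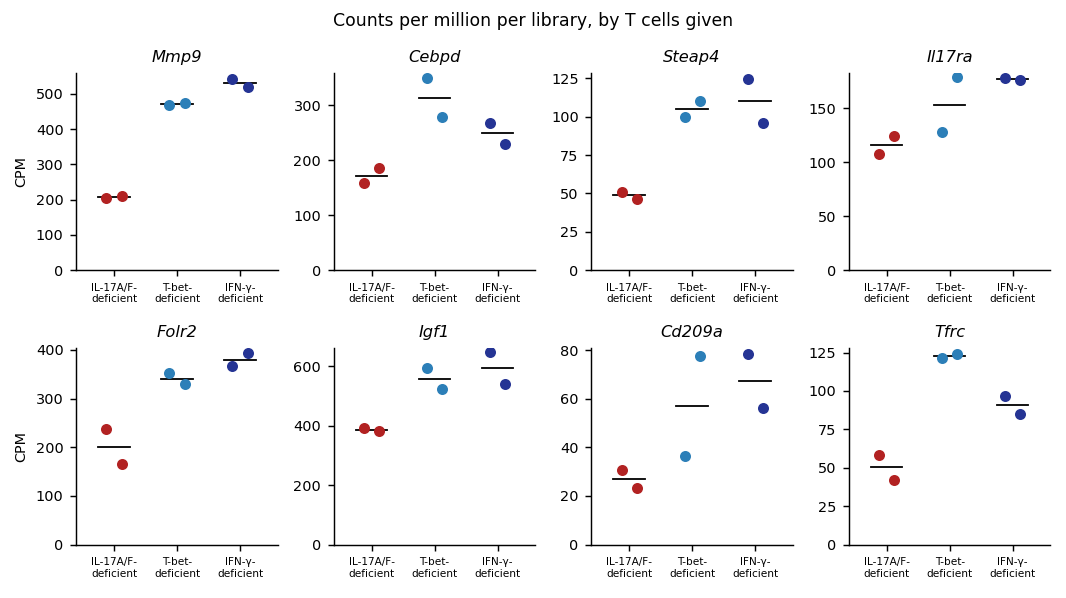
Levels in CPM (y axis, linear from 0) of 8 genes in the 6 libraries, with the IL-17A/F, T-bet and IFN-gamma groups from left to right; points are libraries and lines are group means (n = 2 each). Both IL-17A/F libraries lie below all 4 others in every panel, and none of the 8 genes was called.

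Genes of monocyte-derived cells had a median log2 fold change of 1.03 over 18 genes, many of them scarce. None was called, and 3 were higher at an unadjusted p under 0.05, beside 2.89% of all genes. The median was 0.66 without the first IL-17A/F library, 0.72 without the second, 0.71 without the first T-bet library and 1.00 without the first IFN-gamma library. Itgal, the alpha chain of the integrin LFA-1, had 63.1 and 128 CPM in the IL-17A/F libraries, 42.9 and 43.9 CPM in the T-bet libraries, and 26.5 and 47.8 CPM in the IFN-gamma libraries (log2 fold change 1.25 ± 0.427, SE; not called). Ly6c2, the classical monocyte marker, had 12.3 and 1.82 CPM in the IL-17A/F libraries, 0.492 and 1.48 CPM in the T-bet libraries, and 0.275 and 2.30 CPM in the IFN-gamma libraries. The more abundant Ccr2, a chemokine receptor of monocytes, had 271 and 321 CPM in the IL-17A/F libraries, 338 and 256 CPM in the T-bet libraries, and 222 and 213 CPM in the IFN-gamma libraries, and the arms overlapped. Both IL-17A/F libraries were above all 4 others for 7 of the 18, beside 9.49% of all genes. The list's summed level was 2317 to 2486 CPM in the IL-17A/F libraries, 1876 to 2202 CPM in the T-bet libraries and 1662 to 2297 CPM in the IFN-gamma libraries.

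Of 11 tested neutrophil genes none was called. At an unadjusted p under 0.05, 2 were higher and 1, Mmp9, was lower, beside 2.89% and 0.971% of all genes. Their median log2 fold change of 0.38 was not stable, at -1.25 without the first IL-17A/F library and 2.13 without the second IFN-gamma library. The 2 higher genes encode granule proteins of granulocyte precursors. Mpo, which encodes myeloperoxidase, had 63.7 and 51.0 CPM in the IL-17A/F libraries, 0.197 and 0 CPM in the T-bet libraries, and 0 and 17.6 CPM in the IFN-gamma libraries. It also varied widely in mice without T cells, from 0 to 683 CPM (n = 6). Elane, neutrophil elastase, had 13.1 and 21.1 CPM in the IL-17A/F libraries, 0 and 0.0986 CPM in the T-bet libraries, and 0 and 1.33 CPM in the IFN-gamma libraries. Prtn3, proteinase 3, which was named after its values were seen, had 19.9 and 14 CPM in the IL-17A/F libraries, 0.688 and 0.197 CPM in the T-bet libraries, and 0.549 and 1.24 CPM in the IFN-gamma libraries. It was called in the fits to the 6 libraries alone. Among genes of mature neutrophils, Ly6g, Cxcr2 and Retnlg were left out for low counts, and S100a8 had 2.59 and 0.649 CPM in the IL-17A/F libraries, 10.1 and 0.493 CPM in the T-bet libraries, and 0 and 1.42 CPM in the IFN-gamma libraries. The summed level of all 15 neutrophil genes, which include Mmp9, was 383.4 to 392.1 CPM in the IL-17A/F libraries, 562.1 to 598.6 CPM in the T-bet libraries and 593.3 to 619.6 CPM in the IFN-gamma libraries.

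Fibroblast genes were detected in all 6 libraries. Their summed level was 4394 to 7173 CPM in the IL-17A/F libraries, 7774 to 8177 CPM in the T-bet libraries and 8423 to 9896 CPM in the IFN-gamma libraries. All 12 genes had a negative log2 fold change (median -0.49), with none at an unadjusted p under 0.05 and 6 lower at that p in the fits to the 6 libraries alone. The median was -0.17 without the first IL-17A/F library and -0.90 without the second. Microglia genes, several of which border macrophages share, had a median of -0.26, or -0.03 without the first IL-17A/F library, and 4 of the 10 tested were positive. Tmem119 had 50.8 and 82 CPM in the IL-17A/F libraries, 72.6 and 62.9 CPM in the T-bet libraries, and 30.5 and 72.1 CPM in the IFN-gamma libraries, and the arms overlapped. Siglech had 53.9 and 36.6 CPM in the IL-17A/F libraries, 59.1 and 81.1 CPM in the T-bet libraries, and 125 and 95.5 CPM in the IFN-gamma libraries. The 14 mitochondrial genes tested had a median log2 fold change of -0.93, of -0.33 over the T-bet group and of -1.50 over the IFN-gamma group. Of the 14, 7 were lower at an unadjusted p under 0.05, beside 0.971% of all genes. Without the first IFN-gamma library the median was -0.33 and none was lower at that p. Without the first IL-17A/F library it was -0.76, also with none. mt-Cytb had 2106 and 2706 CPM in the IL-17A/F libraries, 3350 and 3096 CPM in the T-bet libraries, and 11910 and 3324 CPM in the IFN-gamma libraries. The part of the fibroblast and mitochondrial transcripts in the other results was not tested.

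**Figure D4:**
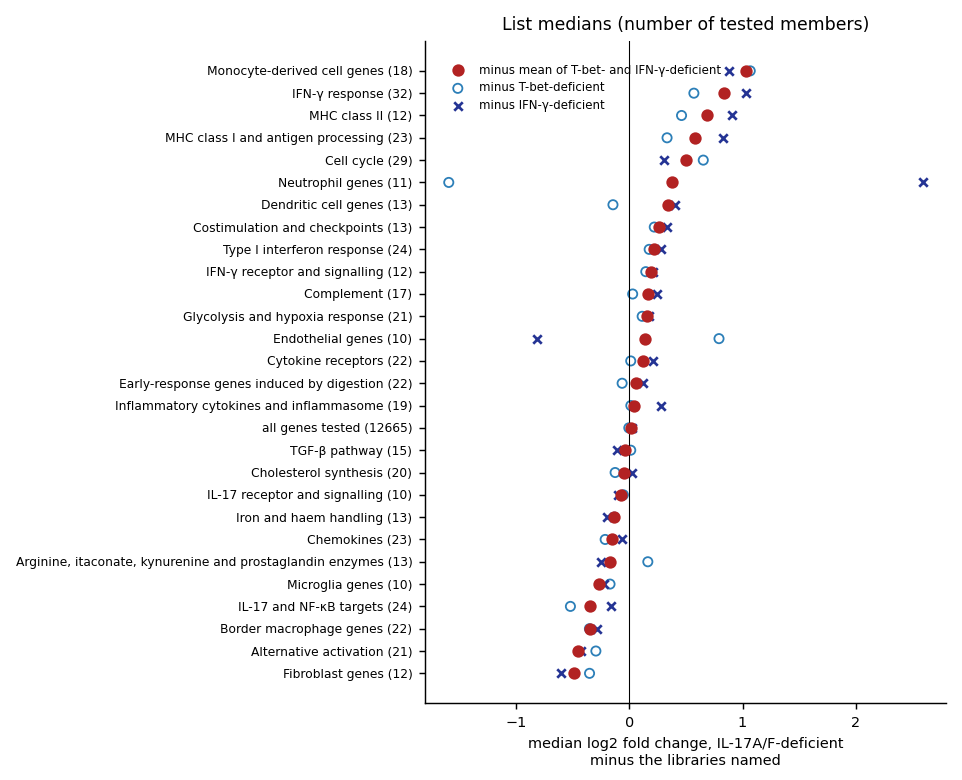
Median log2 fold change of the IL-17A/F group (x axis) over the tested members of each list with at least 10 of them (y axis, number of members in parentheses), against the mean of the T-bet and IFN-gamma groups (filled points), the T-bet group (open points) and the IFN-gamma group (crosses). The IFN-gamma response (0.83) and both MHC lists (0.69 and 0.58) lie right of all genes (0.01), and further right against the IFN-gamma group than against the T-bet group. Furthest right lies the monocyte-derived list (1.03), in the opposite order (1.07 against the T-bet group, 0.88 against the IFN-gamma group). The cell-cycle list (0.50) has that opposite order too (0.65 and 0.31).

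Outside the lists' themes, the genes with the smallest p after Fcgr4 were taken as they came. Rgs2, a regulator of G-protein signalling, had 289.5 and 315 CPM in the IL-17A/F libraries, 175 and 180 CPM in the T-bet libraries, and 208 and 180 CPM in the IFN-gamma libraries. Its log2 fold change of 0.70 ± 0.137 (SE; edgeR q = 0.172) missed the threshold. Rgs1, of the same family, had 202 and 244 CPM in the IL-17A/F libraries, 86.9 and 110 CPM in the T-bet libraries, and 96.4 and 94.0 CPM in the IFN-gamma libraries (1.2 ± 0.289, SE). Unlike the interferon genes, both Rgs genes were at like levels in the T-bet and IFN-gamma groups. Klra2, a Ly49 receptor gene with close copies on chromosome 6 (GRCm38, 131219223 to 131247362, - strand), had 82.3 and 164 CPM in the IL-17A/F libraries, 56.3 and 49.4 CPM in the T-bet libraries, and 21.1 and 34 CPM in the IFN-gamma libraries (1.68 ± 0.344, SE; edgeR q = 0.172). The aquaglyceroporin gene Aqp9 had 10 and 12 counts in the IL-17A/F libraries, 0 and 0 counts in the T-bet libraries, and 0 and 1 count in the IFN-gamma libraries. Nmrk1, a nicotinamide riboside kinase, had 3.74 and 3.76 CPM in the IL-17A/F libraries, 2.75 and 3.45 CPM in the T-bet libraries, and 0 and 0.266 CPM in the IFN-gamma libraries. It was called against the IFN-gamma group (edgeR q = 0.0327), where the low levels of that group set it apart from the other 4 libraries. Cd226, an adhesion receptor, had 23 and 40 counts in the IL-17A/F libraries, 7 and 2 counts in the T-bet libraries, and 0 and 2 counts in the IFN-gamma libraries.

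In the main comparison no gene was called lower, by edgeR or by DESeq2, with 123 genes lower at an unadjusted p under 0.05 by edgeR and 188 by DESeq2. The smallest p on that side belonged to the imprinted antisense transcript Kcnq1ot1, with 1.51 and 0.908 CPM in the IL-17A/F libraries, 5.21 and 2.76 CPM in the T-bet libraries, and 7.69 and 5.32 CPM in the IFN-gamma libraries. Its strand cannot be told from that of Kcnq1 in these libraries. Tfrc, the transferrin receptor through which cells take up iron, had 58.5 and 42.0 CPM in the IL-17A/F libraries, 122 and 124 CPM in the T-bet libraries, and 96.8 and 85.0 CPM in the IFN-gamma libraries (log2 fold change -1.07 ± 0.33, SE; edgeR q = 0.974). The other 8 were Txnl4b, Ecd, Dusp23, Nicn1, Pdcd7, Gm26813, Atg4b and Gm10277, most of them scarce.

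In the remaining lists few genes stood out. Odc1, the enzyme that makes putrescine from ornithine, had 124 and 150 CPM in the IL-17A/F libraries, 70.5 and 99.5 CPM in the T-bet libraries, and 59.7 and 78.2 CPM in the IFN-gamma libraries. Il27, a subunit of interleukin-27, had 8.28 and 8.82 CPM in the IL-17A/F libraries, 4.52 and 5.23 CPM in the T-bet libraries, and 1.92 and 0.798 CPM in the IFN-gamma libraries. Itgax, which encodes CD11c, differed by 1.34 ± 0.494 and the costimulatory ligand Tnfsf9 by -1.02 ± 0.421 on the log2 scale (SE; neither called). Of 29 cell-cycle genes 26 had a positive log2 fold change, with a median of 0.50, beside 6503 of all 12665 genes tested. At an unadjusted p under 0.05, 4 were higher, beside 2.89% of all genes. The second IL-17A/F library was the higher of its pair for 2 of the 29. The median was 0.03 without the first IL-17A/F library and 0.84 without the second, and it was 0.31 without the first IFN-gamma library and 1.00 without the second. Top2a, a topoisomerase of dividing cells, had 53.9 and 30.8 CPM in the IL-17A/F libraries, 28.6 and 19.6 CPM in the T-bet libraries, and 14.3 and 59.9 CPM in the IFN-gamma libraries, and the arms overlapped. Medians of the lists on glycolysis, cholesterol synthesis, complement, the TGF-beta pathway and iron handling lay between -0.14 and 0.17.

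Set against the other groups of the series, the IL-17A/F libraries did not hold the highest interferon levels. The mean log2(CPM + 1) of the 32 IFN-gamma response genes was 5.77 to 6.16 in the IL-17A/F libraries, 5.29 to 5.44 in the T-bet libraries and 4.91 to 4.96 in the IFN-gamma libraries. It was 5.59 to 6.34 with IL-22-deficient T cells (n = 3), 4.56 to 5.61 with T cells lacking the IL-6Ra and IL-21R (n = 7), 5.88 to 7.88 with total T cells (n = 5) and 4.88 to 5.68 without T cells (n = 6). Both IL-17A/F libraries thus lay above the range of the mice without T cells, and both T-bet and both IFN-gamma libraries within it. Fcgr4 had 354, 524 and 577 CPM (lowest, median and highest) with total T cells, 235, 377 and 381 CPM with IL-22-deficient T cells, 103, 143 and 178 CPM with T cells lacking the IL-6Ra and IL-21R, and 111, 135 and 161 CPM without T cells. All but 1 library of those 4 groups had a summed ribosomal protein level above 10000 CPM, unlike the 6 compared. Library type was inferred from this level alone. Library type, if it differed, and T-cell group cannot be told apart for these levels.

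**Figure D5:**
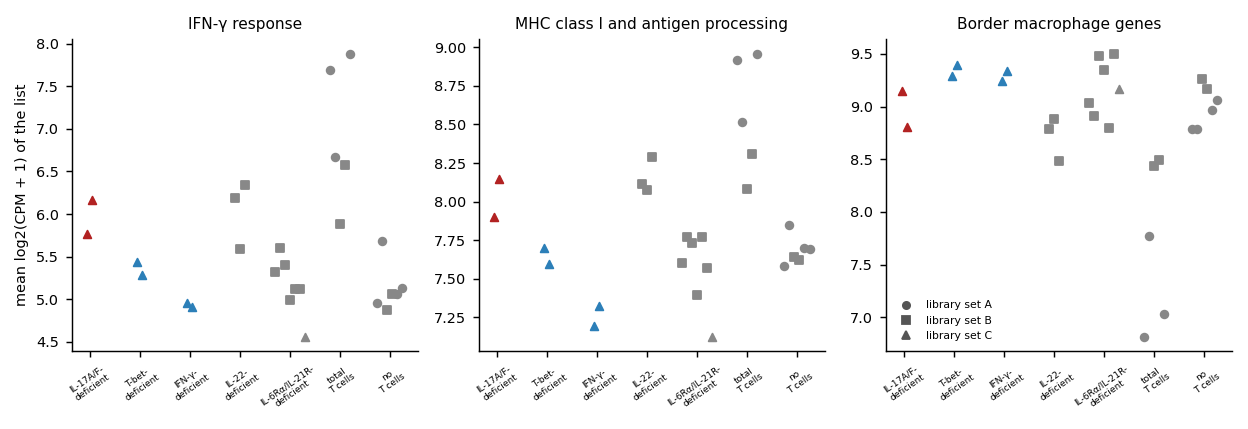
Mean log2(CPM + 1) of 3 lists (y axis) in each of the 27 libraries by T cells given (x axis), with symbols for library sets split by summed ribosomal protein CPM (triangles, the set under 10000 CPM that holds the 6 libraries compared; squares and circles, the sets above it). For the IFN-gamma response the IL-17A/F libraries lie at 5.77 and 6.16, above the T-bet and IFN-gamma libraries and within the range of the group given IL-22-deficient T cells (5.59 to 6.34), while the range of the group given total T cells began at 5.88.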

How the data were processed

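RNA of sorted dural macrophages was sequenced with an unstranded single-end kit, per the labels' protocols. The submitters' processing notes name STAR 2.4.0j, featureCounts, DESeq2 1.20.0 and GRCm38. The deposited table is described as normalized, but its values are whole numbers, each of its 27 columns holds every count from 1 to 20, and column totals differ, so they were treated as raw counts of 41388 gene IDs, 40254 of them paired with a symbol.

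Counts of all 27 libraries were fitted together with edgeR 4.0.16 (R 4.3.3, limma 3.58.1; TMM factors, quasi-likelihood test, group and sex as terms), so that 7 groups share 1 estimate of the spread. Tested were the genes whose normalized counts averaged 10 or more across all libraries. The contrast was the IL-17A/F group minus the mean of the T-bet and IFN-gamma groups, and genes were called at a Benjamini-Hochberg adjusted p under 0.05. Each SE was derived from the test, as the absolute log2 fold change over the square root of the F statistic. CPM of genes and lists are counts per 1000000 of a library's total after scaling by its TMM factor. The ribosomal protein CPM and the limit for zero counts use the unscaled total. Replicates are libraries; no label shows that each is an animal of its own, and the p-values then reflect only how far these libraries differ, which may be technical. Zero counts allow up to 3 counts, and PCR reads without molecular identifiers make that limit cover counting error only.

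The libraries compared, the gene lists and the tests were chosen with earlier results of these data known. Named by rule were called genes, the receptor and cytokine genes, the members of each list with the highest CPM, and the 10 genes of smallest p in each direction; other list members were named after their values were seen. Alternatives covered the normalization, DESeq2 1.42.0, the filter, the libraries in the fit, the sex and library-set terms, summing the T-bet libraries, and leaving out each library. Promoter windows are from RefSeq on GRCm38.p6. Some genes that the rule or the lists hold are not reported here.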

Additional observations from a re-analysis of the deposited data

Results flagged for a closer look

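In 3 of 30 group-wise checks of single genes over groups of 5 to 7 libraries, the highest or lowest library stood apart. It lay further from the rest than Dixon's 95% limit, which chance passes in about 1 of 20 groups. The groups compared above were too small for this check and were not part of it. Gbp8 had its lowest level, 5.32 CPM, in the fourth male library of the group given T cells lacking the IL-6Ra and IL-21R. Cxcl9 (142 CPM) and Tap1 (275 CPM) were highest in the second female library of the group without T cells.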

How the results depend on the processing

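The number of genes called in the main comparison, 1, was 4 with DESeq2, 171 with no filter on low counts, 5 and 3 in fits to the 6 libraries alone with 3 groups and with 2 arms, 10 with the library set as a term and 0 with both T-bet libraries summed. Leaving out single libraries gave 0 to 101, with 101 without the second IFN-gamma library and 0 without either T-bet library, the first IFN-gamma library or the second IL-17A/F library. Against the T-bet group, the 0 calls became 81 with no filter. Against the IFN-gamma group, the 2 calls became 11 with DESeq2, 218 with no filter, 9 with the 19 female libraries, 15 with the library set as a term and 1 with both T-bet libraries summed, and 0 to 299 when single libraries were left out, with 299 without the second IFN-gamma library and 0 without the first IFN-gamma or the second IL-17A/F library. The split at an unadjusted p under 0.05, 366 higher and 123 lower, was 340 and 188 with DESeq2, 335 and 145 with another scaling (RLE), 472 and 411 in the fit to the 6 libraries with 3 groups and 426 and 432 with 2 arms. The cause was not tested. The list medians ranged from 0.53 to 0.97 (IFN-gamma response), 0.44 to 0.93 (MHC class II), 0.41 to 0.72 (MHC class I), -0.51 to -0.14 (border macrophage) and -0.54 to -0.16 (IL-17 and NF-kB targets), each with 1 sign over 17 settings. No paired analysis was possible because the columns carry no replicate number of the titles. With 2 libraries a group, precision is limited by their number more than by depth.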

Other observations

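Among the most abundant members of the complement, inflammatory cytokine, iron and glycolysis lists, the following differed little. C1qa and C1qb, subunits of the first complement component, had log2 fold changes of 0.17 ± 0.19 and 0.24 ± 0.193 (SE) in the IL-17A/F group over the mean of the T-bet and IFN-gamma groups. Il1b, which encodes interleukin-1 beta, had 815 and 1396 CPM in the IL-17A/F libraries, 800 and 1154 CPM in the T-bet libraries, and 580 and 785 CPM in the IFN-gamma libraries, and the arms overlapped. Fth1, the ferritin heavy chain, differed by 0.04 ± 0.151 and the glycolytic enzyme gene Pkm by 0.15 ± 0.352.

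Markers of rare cells showed low counts. Nkg7, a granule protein gene of NK cells and cytotoxic T cells, had 19 and 11 counts in the IL-17A/F libraries, 0 and 4 counts in the T-bet libraries, and 0 and 0 counts in the IFN-gamma libraries. Klrk1, of the same list, had 79 and 159, 64 and 69, and 37 and 35 counts in these groups, and the arms overlapped. Only these 2 of 10 NK-cell genes were tested, both higher at an unadjusted p under 0.05 and neither called. Their median log2 fold change was 3.13, ranging from -0.37 to 4.24 over 17 settings. Dendritic cell genes summed to 497.3 to 532.9 CPM in the IL-17A/F libraries, 472.7 to 588 CPM in the T-bet libraries and 486.5 to 551.5 CPM in the IFN-gamma libraries. For endothelial genes these sums were 60.33 to 196.3 CPM in the IL-17A/F libraries, 39.85 to 109.2 CPM in the T-bet libraries and 67.45 to 196.9 CPM in the IFN-gamma libraries. The part of these transcripts in the results was not tested.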
